A study of Nannospalax ehrenbergi and Mus musculus with 14 samples.

Results

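The family of miR-15, miR-16, miR-195 and miR-497 was described in small RNA libraries from *Spalax*, the blind mole rat, and from mice that had grown tumors after a carcinogen. The family was taken as the 5 rows miR-15a-5p, miR-15b-5p, miR-16-5p, miR-195a-5p and miR-497a-5p of 1326 microRNA names in each table, in all 14 libraries. All animals were given a single injection of 3-methylcholanthrene (3MCA), a chemical carcinogen, under the skin of the neck: 1 mg in 500 μl for *Spalax* and 200 μg in 200 μl for mice. The injected side (IS) gave the tumor and the uninjected side (UIS) gave muscle tissue of the same animal, so that the UIS is no untreated control. *Spalax* Sp600 and Sp976, both female, bore granulomas, a benign scar-like lesion rich in spindle-shaped cells that chronic inflammation leaves behind, and were operated on 14 and 16 months after treatment. *Spalax* Sp2240, a female, and Sp2230, a male, bore malignant fibrosarcomas and were operated on after 18 and 30 months. Mice M512, M1023 and M1019, all male C57BL/6, bore fibrosarcomas and were operated on after 11, 12 and 14 weeks. The *Spalax* were caught in the field, so that their age is an estimate, from about 2 years to 10 years or older, and the mice were 3 to 4 months old. The third mouse UIS library has a column number that no label carries, is called unnumbered here, and was kept as a UIS library without a pair.

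A microRNA is cut from a hairpin transcript, and the strand from its 5′ arm (5p) or its 3′ arm (3p) is loaded into a silencing complex. Bases 2 to 8, the seed, pair with target messenger RNAs, and microRNAs with the same seed share most targets. The miR-15/16 family is known as a brake on the cell cycle, since its members silence cyclins D1 and E1, CDK6, CHK1 and WEE1, and also the survival factor BCL2. The miR-15a/16-1 locus is deleted in many chronic lymphocytic leukemias, and miR-195 rises in the heart after birth, when heart muscle cells leave the cycle.

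Each member belongs to a locus with 2 hairpins. In GENCODE M21, on the mouse build GRCm38, Mir15a (chr14:61632027-61632110, minus strand) lies in an intron of the long non-coding gene Dleu2, and Mir16-1 (chr14:61631880-61631972, same strand) overlaps an exon of a Dleu2 transcript 54 bases away. Mir15b (chr3:69009772-69009835, plus strand) and Mir16-2 (chr3:69009902-69009996) lie 66 bases apart in an intron of Smc4, which encodes a condensin subunit. Mir497 (chr11:70234717-70234800, plus strand) and Mir195a (chr11:70235042-70235135) lie 241 bases apart, outside other genes except Mir497b on the opposite strand over Mir497. The related Mir322 (chrX:53054255-53054349, minus strand) has Mir503 200 bases from it. The sequences below show what makes these a family: each is the 22 bases of the GENCODE hairpin, from 5′ to 3′, in which the capitals mark the shared 7 letters at bases 2 to 8.
Mir15a, chr14:61632075-61632096: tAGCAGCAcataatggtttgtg
Mir15b, chr3:69009775-69009796: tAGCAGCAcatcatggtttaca
Mir16-1, chr14:61631936-61631957: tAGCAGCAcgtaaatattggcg
Mir16-2, chr3:69009918-69009939: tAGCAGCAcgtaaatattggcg
Mir195a, chr11:70235062-70235083: tAGCAGCAcagaaatattggca
Mir497, chr11:70234730-70234751: cAGCAGCAcactgtggtttgta
Mir322, chrX:53054306-53054327: cAGCAGCAattcatgttttgga

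The windows of Mir16-1 and Mir16-2 were identical at 22 of 22 bases, so that reads of miR-16-5p cannot be assigned to the Dleu2 or the Smc4 locus. The Mir195a window matched that of Mir16-1 at 19 of 22 bases, more than it matched that of its neighbor Mir497, at 13. Mir15a and Mir15b matched at 18 bases, and Mir497 matched Mir15a at 17. Mir322 shares the 7 letters but matched the others at 12 to 16 bases, and the hairpin of Mir503 does not hold the letters. The letters AGCAGCA were searched on the transcribed strand and stood in 84 of 2202 mouse microRNA hairpins (3.81%), at any position, so that the letters alone do not define the family. The sequences are those of the mouse, and the *Spalax* hairpins were not used here. The files give the 5 names different values, with no other name at values identical to a member's.

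The libraries held 2034574 to 13982842 reads on microRNAs, with 2034574 to 9574014 at the IS and 11446933 to 13982842 at the UIS. The 7 microRNAs of muscle fibers took 27.7% to 37.3% of the UIS reads. They took 0.00959% to 0.165% of the *Spalax* IS reads and 0.01% to 3.94% of the mouse IS reads, although the IS is labelled muscle tissue too. White blood cell microRNAs took 0.0621% to 0.112% of the reads at the UIS and 0.341% to 2.39% at the IS, and red blood cell microRNAs 1.46% to 18% at the UIS and 0.267% to 3.32% at the IS. Fibroblast microRNAs took 0.232% to 1.09% at the UIS and 3.21% to 11.8% at the IS, smooth muscle 1.68% to 4.05% and 1.17% to 3.43%, endothelium 0.323% to 1.1% and 0.343% to 1.64%, and epithelium at most 0.000765% and 0.00638%. On the normalized counts that are used below for the family, both endothelium microRNAs fell at the IS in all 3 comparisons, by log2 changes of -2.52 to -2.08. So did both smooth muscle microRNAs, with -2.69 to -1.67. Of all microRNAs tested, 22.8% were called lower (adjusted p under 0.05 in limma) in granuloma, 22.1% in *Spalax* and 25.6% in mouse fibrosarcoma. As shares of reads, the sides overlapped for smooth muscle in both species and for endothelium in mice, so that these falls depend on the scaling. Endothelium in *Spalax* took 0.784% to 0.993% of the reads at the UIS and 0.395% to 0.743% at the IS, without overlap. In whole tissue, fewer cells of a type and less of a microRNA per cell cannot be told apart. A normalized count is the value the authors deposited, namely reads divided by a factor per library. The factors of the *Spalax* and the mouse table were set separately, so that levels are compared within a species only.

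miR-16-5p carried most of the family. It held 85.5% to 94.8% of the reads of the 5 members in each of the 14 libraries, and each of the other members held 0.506% to 4.66%. By reads it stood between the 3rd and the 21st place among all microRNAs of its library. The 5 members together took 0.695% to 0.858% of the microRNA reads at the 7 UIS libraries. At the IS they took 3.21% and 3.4% in granuloma, 5.09% and 6.72% in the *Spalax* and 2.12% to 4.22% in the mouse fibrosarcomas. The share was thus higher in each IS library than in any UIS library, but a share of reads also depends on the muscle microRNAs that fill the UIS libraries. When all libraries were scaled to their totals, the median log2 fold change (IS over UIS) of all microRNAs tested was 1.71 in granuloma, 1.14 in the *Spalax* and 2.24 in the mouse fibrosarcomas, against 0.13, -0.23 and 0.21 on the normalized counts. The comparisons below use the normalized counts, and a fold change is the difference of the mean log2(normalized count + 1) between groups.

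**Figure D1:**
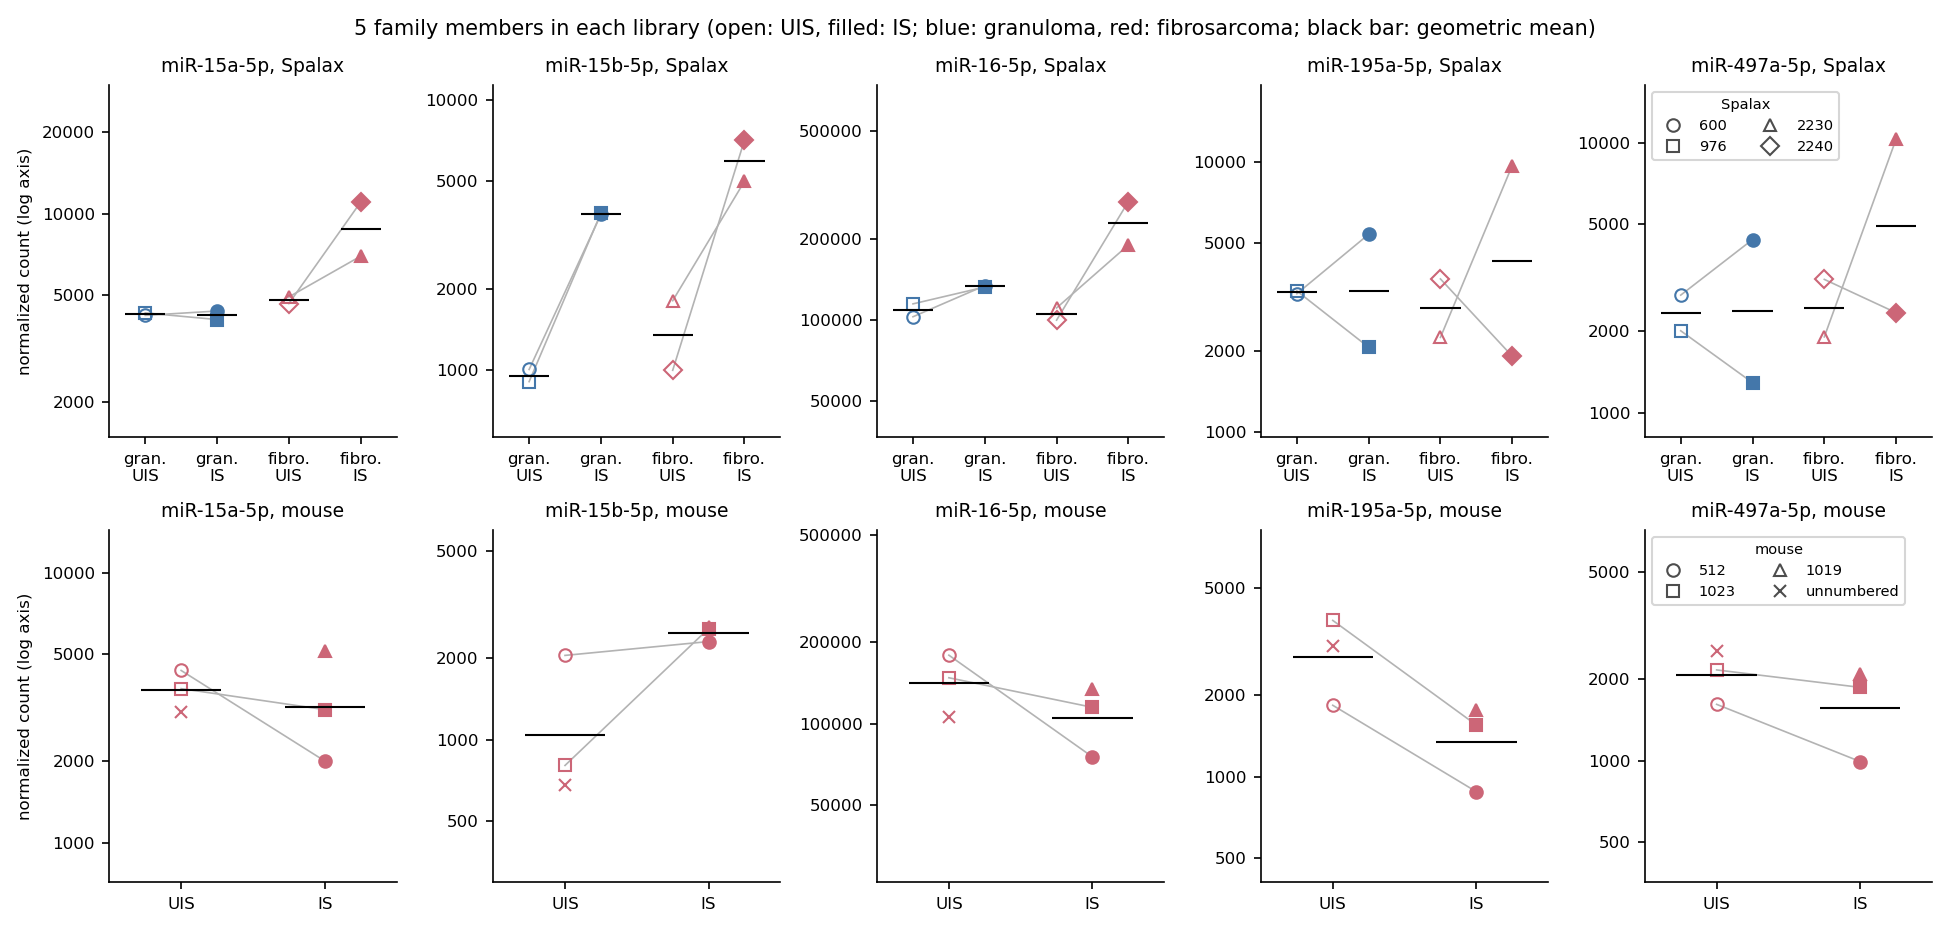
Normalized counts of the 5 members on log axes, 1 point per library, with *Spalax* in the top row, mice in the bottom row, and lines joining both sides of an animal. miR-15b-5p was higher at every IS than at every UIS in *Spalax*, and miR-195a-5p moved up in 2 *Spalax* and down in the other 2.

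Counted over the family, 1 of the 5 members was called in granuloma, where 48.3% of the 447 microRNAs tested were called and 25.5% were called higher. In *Spalax* fibrosarcoma 2 of the 5 were called, both higher, where 37.4% of 447 were called and 15.2% were called higher. In mouse fibrosarcoma 0 of the 5 passed limma's threshold, where 57.8% of 547 did. At an unadjusted p under 0.05 there were 2 mouse members, miR-15b-5p and miR-195a-5p, in opposite directions, and DESeq2 called 1 of them while edgeR called 0. The median log2 fold change of the 5 members was 0.02 in granuloma, 1.01 in *Spalax* fibrosarcoma and -0.40 in mice, beside 0.13, -0.23 and 0.21 over all microRNAs tested.

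miR-15b-5p, from the Smc4 locus, rose at the IS of both *Spalax* tumors. Its normalized count at the granuloma IS was 3771 in animal Sp600 and 3811 in animal Sp976, against 1005 and 906 at their UIS. In *Spalax* fibrosarcoma it was 5003 in animal Sp2230 and 7110 in animal Sp2240 at the IS, against 1807 and 998 at the UIS. Every *Spalax* IS library lay above every *Spalax* UIS library. The log2 fold change was 1.99 ± 0.42 in granuloma and 2.15 ± 0.42 in fibrosarcoma (SE, 2 libraries per group, adjusted p = 0.0073 and 0.00675). Without the UIS library of animal Sp2240, the fibrosarcoma value was 1.72 with an adjusted p of 0.0549. In mice the count was 2307, 2578 and 2601 at the IS of animals M512, M1023 and M1019, and 2050, 802 and 681 at the UIS of animals M512 and M1023 and in the unnumbered library. All 3 mouse IS libraries lay above the 3 UIS libraries, with the UIS of mouse M512 close below them. The mouse change of 1.26 ± 0.47 did not pass the threshold (adjusted p = 0.0521). It was 0.93 with a replicate block for the animal (adjusted p = 0.243), and from 0.96 without the unnumbered library, where it did not pass, to 1.75 without the UIS library of mouse M512 (adjusted p = 0.013).

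The other strand of the same hairpin, miR-15b-3p, was called in all 3 comparisons. Its normalized counts at the UIS and IS were 87.9 and 348 in *Spalax* Sp600, 90.2 and 289 in Sp976, 118 and 515 in Sp2230, and 102 and 523 in Sp2240. The 4 IS libraries were all above the 4 UIS libraries. The log2 fold change was 1.82 ± 0.40 for granuloma and 2.23 ± 0.40 for *Spalax* fibrosarcoma (adjusted p = 0.0086 and 0.00486), close to those of the 5p strand. The granuloma value was 1.69 with an adjusted p of 0.0512 without the IS library of animal Sp600. In mice miR-15b-3p changed by 1.64 ± 0.57 (adjusted p = 0.0432), with 317 to 367 at the IS and 65.2 to 248 at the UIS. With a replicate block for the animal, the mouse value became 1.32 (adjusted p = 0.184), and it missed the threshold without any 1 of 5 of the 6 libraries, the exception being the UIS library of mouse M512. The 3p strand had 0.0653 to 0.103 reads per read of the 5p strand in *Spalax* and 0.0925 to 0.159 in mice.

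miR-16-5p, made from 2 loci, was higher at the IS of *Spalax* fibrosarcoma. Its normalized count there was 189349 in animal Sp2230 and 274248 in animal Sp2240, against 110713 and 99766 at the UIS. The log2 fold change was 1.12 ± 0.28 (adjusted p = 0.0165), about 2.17-fold. The call did not hold with the animal as a replicate block (adjusted p = 0.0509), and without the UIS library of animal Sp2230 or that of Sp2240 the adjusted p was 0.0765 and 0.105. In granuloma the count was 133867 and 132307 at the IS, against 102692 and 114622 at the UIS of animals Sp600 and Sp976. Both IS libraries lay above both UIS libraries, but the change of 0.29 ± 0.28 did not pass the threshold (adjusted p = 0.406, 95% interval -0.35 to 0.94). In mice it was 75364, 115045 and 134816 at the IS of animals M512, M1023 and M1019, and 179475, 148047 and 106133 at the UIS of M512, M1023 and the unnumbered library. The mouse groups overlapped, with a difference of -0.42 ± 0.33 (adjusted p = 0.304) that turned to 1.96 on library totals, where the median of all microRNAs was 2.24.

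miR-15a-5p, the neighbor of miR-16-1 in Dleu2, had nearly equal counts on both sides in granuloma. They were 4362 and 4055 at the IS against 4202 and 4291 at the UIS of animals Sp600 and Sp976, a difference of -0.01 ± 0.35 (95% interval -0.84 to 0.81). In *Spalax* fibrosarcoma they were 6961 and 11038 at the IS of animals Sp2230 and Sp2240, against 4917 and 4647 at the UIS. Both fibrosarcoma IS libraries were above every other *Spalax* library, but the change of 0.87 ± 0.35 did not pass the threshold (adjusted p = 0.0889). It passed with DESeq2's Wald test, at 0.93 (adjusted p = 0.0439), and with limma without the IS library of animal Sp2230, at 1.21 (adjusted p = 0.0315). In mice the counts were 2005, 3107 and 5117 at the IS of animals M512, M1023 and M1019, against 4339 and 3716 at the UIS of M512 and M1023 and 3039 in the unnumbered library. The groups overlapped, with a difference of -0.21 ± 0.41 (adjusted p = 0.669), or -0.69 with the replicate block (adjusted p = 0.293). Within animals the log2 change was -1.11 in M512 and -0.26 in M1023. The unpaired value turned to 0.12 without the IS library of mouse M512 and to 2.17 on library totals.

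The other strands of the miR-16 and miR-15a hairpins were rare. miR-16-1-3p, which can come from the Dleu2 locus only, had 0 to 13 reads in the *Spalax* libraries and was not tested there. In mice it had normalized counts of 71.1, 86 and 92.5 at the IS of animals M512, M1023 and M1019, against 40.4, 32.9 and 27.1 at the UIS of M512, M1023 and the unnumbered library. The mouse groups did not overlap, and the change was 1.30 ± 0.39 (adjusted p = 0.0266), or 1.08 with the replicate block (adjusted p = 0.295). The call was also lost without any 1 of 4 of the 6 libraries, the exceptions being both libraries of mouse M512. miR-16-2-3p, from the Smc4 locus, had 29.8 to 79.4 at the *Spalax* UIS and 50.7 to 117 at the IS. Its differences of 0.87 ± 0.65 in granuloma, 0.91 ± 0.65 in *Spalax* fibrosarcoma and 0.48 ± 0.56 in mice did not pass the threshold (adjusted p = 0.301, 0.307 and 0.483). miR-15a-3p had 0 reads in all 8 *Spalax* libraries, which allows a share of up to 2.3e-05% to 0.000147% by library. This limit covers counting only, and whether reads of the *Spalax* strand would be counted under this name was not tested. In mice it had 13 to 92 reads and did not pass the threshold (0.69 ± 0.44, adjusted p = 0.207).

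miR-195a-5p and miR-497a-5p, from the locus on chromosome 11, varied widely between the *Spalax* tumors. The normalized count of miR-195a-5p at the IS was 5399 in granuloma Sp600 and 2060 in granuloma Sp976, against 3252 and 3330 at their UIS. In fibrosarcoma it was 9707 in animal Sp2230 and 1909 in animal Sp2240 at the IS, against 2241 and 3690 at the UIS. The IS libraries thus held both the highest and the lowest value of the 8, on either side of all the UIS values. miR-497a-5p was 4378 and 1292 at the IS of granulomas Sp600 and Sp976, against 2726 and 2011 at the UIS. It was 10318 and 2346 at the IS of fibrosarcomas Sp2230 and Sp2240, against 1909 and 3117 at the UIS. Both members were therefore higher at the IS in *Spalax* Sp600 and Sp2230 and lower in Sp976 and Sp2240, a split that cuts across the diagnoses.

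The tests of these members in *Spalax* have wide intervals. miR-195a-5p differed by 0.02 ± 0.79 in granuloma (95% interval -1.84 to 1.88) and by 0.58 ± 0.79 in fibrosarcoma (-1.27 to 2.44). miR-497a-5p differed by 0.02 ± 0.81 (-1.88 to 1.92) and 1.01 ± 0.81 (-0.89 to 2.91), and the adjusted p was at least 0.361 in all 4 cases. Single libraries turned these signs. Without granuloma Sp600 the values of miR-195a-5p and miR-497a-5p were -0.68 and -0.86, and without fibrosarcoma Sp2230 they were -0.59 and -0.06. Granuloma miR-497a-5p was also -0.20 without the UIS library of Sp976. Within animals the log2 change of miR-195a-5p was 0.73 in Sp600, -0.69 in Sp976, 2.11 in Sp2230 and -0.95 in Sp2240. That of miR-497a-5p was 0.68, -0.64, 2.43 and -0.41 in the same animals. Animals Sp600 and Sp2230 differ in diagnosis, sex and time of operation. At the IS the smooth muscle microRNAs summed to normalized counts of 112292 and 98303 in these animals, against 60457 and 51662 in Sp976 and Sp2240. The *Spalax* UIS sums were 274411 to 338302. Muscle fiber sums at the IS split the same way, and those of the other cell types listed did not. Whether cell types go with the split was not tested.

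In mice miR-195a-5p was lower at the IS by 1.04 on the log2 scale, which did not pass the threshold. The normalized counts were 879, 1552 and 1769 at the IS of animals M512, M1023 and M1019, against 1837, 3788 and 3035 at the UIS of M512, M1023 and the unnumbered library. The 3 IS libraries lay below the 3 UIS libraries, with mouse M1019 close to the UIS of mouse M512. limma gave -1.04 ± 0.43 (adjusted p = 0.0731), DESeq2's Wald test gave -1.04 with an adjusted p of 0.0483, and on library totals the value turned to 1.33, below the median of all microRNAs. miR-497a-5p was 993 to 2094 at the IS and 1618 to 2560 at the UIS, with overlapping groups (-0.40 ± 0.40, adjusted p = 0.41). miR-195a-3p was 42.2 to 145 at the mouse IS and 123 to 335 at the UIS (-1.37 ± 0.60, adjusted p = 0.0893). In *Spalax* miR-195a-3p was 29.1 to 186 at the IS and 25.8 to 35.4 at the UIS, with changes of 0.73 ± 0.81 in granuloma and 1.70 ± 0.81 in fibrosarcoma (adjusted p = 0.482 and 0.139). miR-497a-3p had 0 to 17 reads in every library and was not tested.

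**Figure D2:**
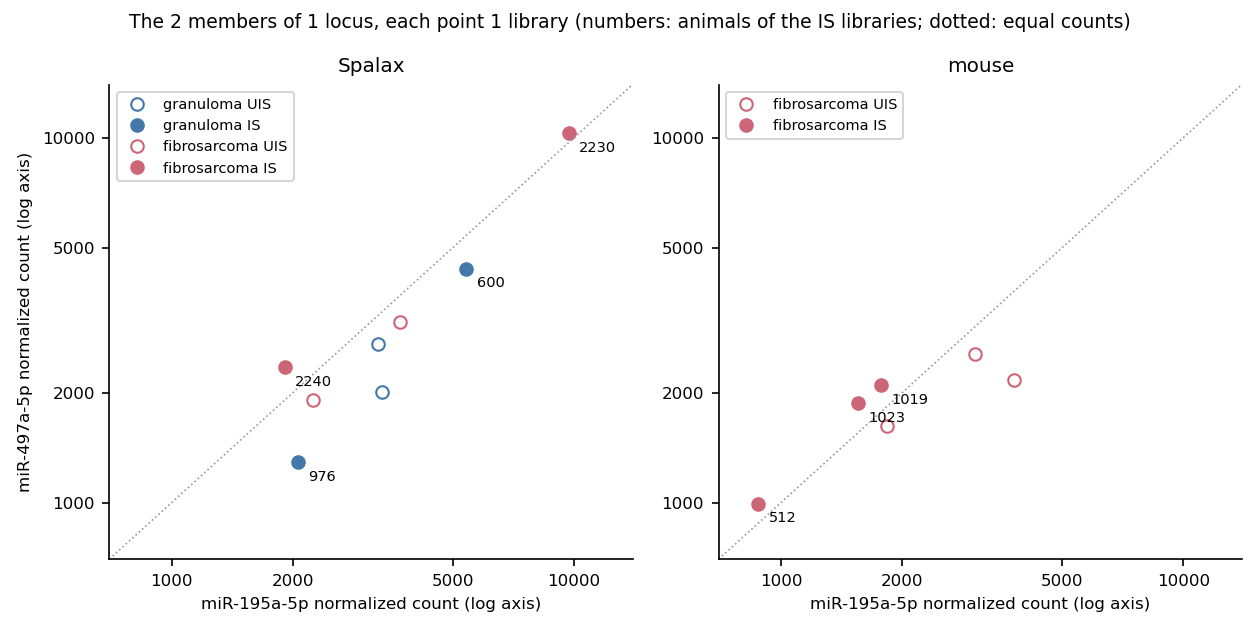
Normalized counts of miR-497a-5p against those of miR-195a-5p, both on log axes, 1 point per library. The *Spalax* IS libraries span the range of both members, from 1909 and 2346 in animal Sp2240 and 2060 and 1292 in animal Sp976 to 9707 and 10318 in animal Sp2230.

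The granuloma and the *Spalax* fibrosarcoma were compared directly in 3 ways. First, the granuloma change minus the fibrosarcoma change was called for 0 of the 5 members and for 3.8% of 447 microRNAs (17 microRNAs, or 5 with the replicate block). The members ranged from -0.99 to -0.16, with 0 at an unadjusted p under 0.05 and 0 called by edgeR or DESeq2. The interval for miR-15b-5p was -1.54 to 1.22, so that a 2-fold difference in its rise between the tumors remains within it. The IS of granuloma against that of fibrosarcoma called 0 of 5 members and 18.8% of 447 microRNAs, and the differences of all 5 members were negative, from -1.06 to -0.37. At an unadjusted p under 0.05 there were 2 members, of which DESeq2 called 1 and edgeR called 0. They were -1.06 ± 0.35 for miR-15a-5p (adjusted p = 0.081) and -0.78 ± 0.28 for miR-16-5p (adjusted p = 0.101), beside a median of -0.27 over all microRNAs. Without the IS library of fibrosarcoma Sp2230 they were -1.39 and -1.04 and passed (adjusted p = 0.0386 and 0.0384), and DESeq2 called miR-15a-5p in all libraries (adjusted p = 0.0217). The UIS of both kinds of bearers differed by -0.49 to 0.19 for the members, with 0 called (0% of 447 microRNAs, 5 of them at an unadjusted p under 0.05, and 0 called by edgeR or DESeq2).

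Ratios within a library do not depend on the scaling between libraries, and they set the members apart. The reads of miR-15b-5p per read of miR-15a-5p were 0.211 to 0.367 at the *Spalax* UIS and 0.644 to 0.94 at the IS. In mice they were 0.216 to 0.473 at the UIS and 0.508 to 1.15 at the IS. The ratio was higher at the IS in 6 of 6 paired animals, by 1.63 ± 0.44 (SD, n = 6) on the log2 scale, and the 7 IS libraries lay above all 7 UIS libraries. Against miR-16-5p, miR-15b-5p was likewise higher in 6 of 6 animals, by 1.49 ± 0.47 (SD, n = 6).

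The ratio of miR-15a-5p to miR-16-5p stayed in a narrow range. There were 0.0306 to 0.0466 reads of miR-15a-5p per read of miR-16-5p in the 8 *Spalax* libraries and 0.0242 to 0.038 in the 6 mouse libraries. Within animals the log2 ratio was lower at the IS in 4 of 4 *Spalax*, by 0.21 to 0.33, and higher in both paired mice, by 0.11 and 0.14. The ratio of miR-195a-5p to miR-16-5p, the 2 members most alike in sequence, spread most of the ratios examined between the 5 members. It ranged from 0.00696 in fibrosarcoma Sp2240 to 0.0513 in fibrosarcoma Sp2230, and its change within animals ran from -2.41 to 1.34. miR-497a-5p per miR-195a-5p ranged from 0.573 to 1.23 over all libraries and was higher at the IS in 5 of 6 animals, by 0.38 ± 0.40 (SD, n = 6).

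**Figure D3:**
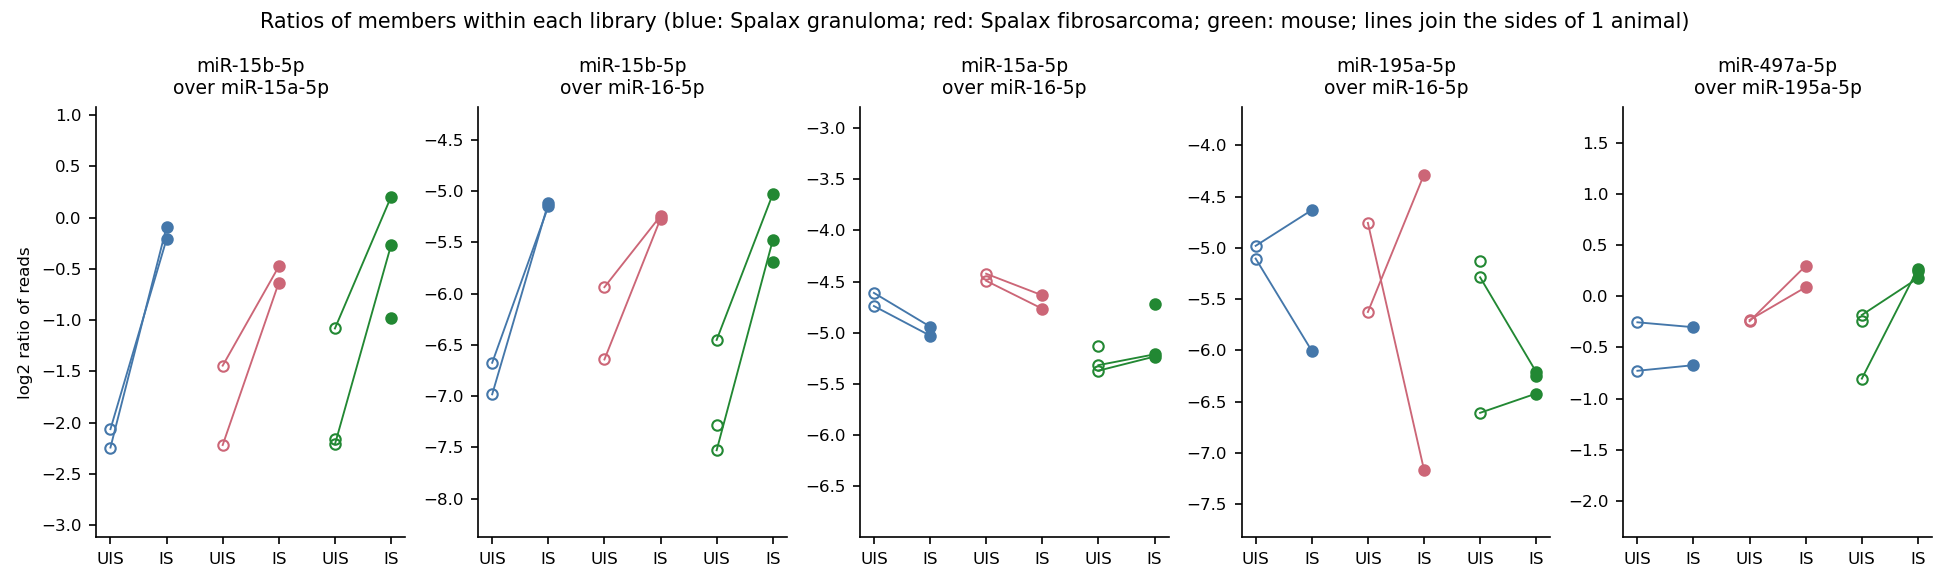
Log2 ratios of the reads of 2 members within each library, open for the UIS and filled for the IS, with lines joining both sides of an animal. The ratio of miR-15b-5p to miR-15a-5p or miR-16-5p goes up in all 6 paired animals, while that of miR-195a-5p to miR-16-5p goes up in 3 and down in 3.

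The correlations of members over libraries are a description, since the libraries are few and share animals and sides. Over the 8 *Spalax* libraries Pearson's r of the log2 values was 0.93 between miR-195a-5p and miR-497a-5p, 0.91 between miR-15a-5p and miR-16-5p, and 0.87 between miR-15b-5p and miR-16-5p. Between miR-195a-5p and miR-16-5p it was 0.02. Over the 6 mouse libraries the first 2 pairs had 0.86 and 0.87, and miR-15b-5p with miR-16-5p had -0.08. The microRNAs most like each member in *Spalax* came from different sets. For miR-15b-5p they were miR-142a-5p (0.99) and miR-146b-3p (0.97), the former a microRNA of white blood cells. For miR-15a-5p they were miR-92a-3p (0.98) and miR-17-3p (0.97), and for miR-16-5p miR-18a-5p (0.97) and miR-350-3p (0.96), of which the former of each pair and miR-17-3p belong to the miR-17-92 cluster. In mice these r were 0.79 for miR-142a-5p, -0.18 for miR-92a-3p, -0.30 for miR-17-3p, -0.54 for miR-18a-5p and -0.12 for miR-350-3p. For miR-195a-5p they were miR-125b-2-3p (0.92) and let-7i-5p (0.88), and the same names led for miR-497a-5p (both 0.83). In mice miR-195a-5p had an r of 0.25 with miR-125b-2-3p and 0.43 with let-7i-5p, and miR-497a-5p had -0.12 and 0.46.

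White and red blood cell microRNAs moved with some of these results and against others. The summed normalized count of the 5 white cell microRNAs was 9754 to 15256 at the *Spalax* UIS and 35165 to 105289 at the IS. It was highest in fibrosarcoma Sp2240, where miR-15b-5p and miR-16-5p were highest too. In mice the sum was 16001 to 19140 at the UIS and 13103 to 61540 at the IS, with overlapping sides. From UIS to IS it fell from 19140 to 13103 in M512, where miR-15b-5p went from 2050 to 2307. In M1023 it rose from 16001 to 30455, where miR-15b-5p went from 802 to 2578. Of the 5 white cell microRNAs, 3 rose in granuloma and 1 fell, 3 rose in *Spalax* fibrosarcoma, and 2 rose in mice. Of all microRNAs tested, 25.5%, 15.2% and 32.2% were called higher in these comparisons, and 22.8%, 22.1% and 25.6% lower. The calls included miR-142a-3p and miR-223-3p in each comparison. The fall called in granuloma was that of miR-150-5p, which changed by -2.05 there. It changed by -1.49 in *Spalax* fibrosarcoma and -2.17 in mice, without a call, and miR-155-5p was called in no comparison. Red blood cells, in which miR-16 is known to be abundant, carry miR-451a and miR-144. The 4 red cell microRNAs summed to 1114481 to 4837351 at the mouse UIS and 20422 to 127401 at the mouse IS. The highest sum was that of the UIS of mouse M512, where miR-16-5p and miR-15b-5p were the highest of the mouse UIS libraries. In *Spalax* the red cell sum was 205695 to 379191 at the UIS and 11974 to 57167 at the IS, while miR-16-5p was higher at the IS in each animal. Of the 4 red cell microRNAs, 1 fell in each comparison, miR-486a-5p, which muscle makes as well. That is near the 22.8%, 22.1% and 25.6% called lower over all microRNAs. No marker of either list was at 0 in a whole group, and the part of blood cells in the values of the family was not tested.

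miR-322-5p, which shares the 7 letters and is the mouse counterpart of human miR-424, rose in all 3 tumors. Its normalized count in *Spalax* was 4915, 10160, 6745 and 13704 at the IS of animals Sp600, Sp976, Sp2230 and Sp2240, against 1112, 587, 903 and 876 at the UIS. The groups lay far apart, with changes of 3.13 ± 0.55 in granuloma (adjusted p = 0.00355) and 3.43 ± 0.55 in fibrosarcoma (adjusted p = 0.00301). In mice it was 8314 to 13273 at the IS and 2414 to 5765 at the UIS, a change of 1.43 ± 0.41 (adjusted p = 0.0219). The mouse call was lost without the IS library of M1023 (adjusted p = 0.0607), the UIS library of M512 (0.0523) or the unnumbered library (0.0501). At the *Spalax* UIS miR-322-5p was below miR-15a-5p in each library, and at the IS it was above it in 3 of 4. miR-503-5p, its neighbor on the X chromosome, had 0 to 3 reads at the *Spalax* UIS and 26 to 53 at the IS. It was called in granuloma (adjusted p = 0.00579) and fibrosarcoma (adjusted p = 0.0117). With a pseudocount of 0.1 in place of 1, its fibrosarcoma change went from 4.27 to 6.05 and missed limma's threshold (adjusted p = 0.0575). The fibrosarcoma call was lost without the IS or the UIS library of animal Sp2240 (adjusted p = 0.0553 and 0.0812). In mice it had 38 to 138 reads at the IS and 5 to 12 at the UIS, with a change of 1.94 ± 0.70 (adjusted p = 0.0486) that became 2.34 with the replicate block (adjusted p = 0.105) and missed the threshold without any 1 of the 6 libraries except the IS of M1023.

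Among 17 other microRNAs known to restrain the cell cycle, namely those of let-7 and miR-98, miR-34 and miR-449a, miR-26, miR-322-5p and miR-503-5p, calls went both ways. In granuloma 2 rose and 5 fell, in *Spalax* fibrosarcoma 4 rose and 6 fell, and in mice 5 rose and 9 fell. The 2 rises in granuloma were those of miR-322-5p and miR-503-5p, described above, which are also among the rises in the other comparisons. Of all microRNAs tested, 25.5% were called higher and 22.8% lower in granuloma, 15.2% and 22.1% in *Spalax* fibrosarcoma, and 32.2% and 25.6% in mice. The median log2 fold change was -0.02, -0.26 and -0.94, beside 0.13, -0.23 and 0.21 over all microRNAs. miR-26a-5p, which targets cyclins and EZH2, fell in each comparison of sides. Its change was -3.11 ± 0.30 in granuloma, -2.24 ± 0.30 in the *Spalax* fibrosarcomas and -3.02 ± 0.27 in mice (adjusted p = 0.000342, 0.00148 and 0.000581). miR-34c-5p, which p53 induces, rose by 4.37 ± 0.48 in mice (adjusted p = 0.001), and miR-26b-5p changed by -1.93 ± 0.29 in granuloma (adjusted p = 0.00186). On library totals these counts became 10 higher and 1 lower, 11 and 0, and 10 and 0.

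Of 11 microRNAs known to promote the cell cycle, from the miR-17-92 and miR-106b clusters and miR-221/222, 4 rose in granuloma, 8 in *Spalax* fibrosarcoma and 5 in mice, with no call in the other direction, beside the same 25.5%, 15.2% and 32.2% called higher over all microRNAs. On library totals the numbers were 10, 11 and 11, and with no filter on low values the granuloma number was 2. The median was 0.75, 2.03 and 1.19. miR-222-3p, which silences the cell cycle inhibitor p27, rose by 4.36 ± 0.85 in granuloma (adjusted p = 0.00543) and 2.90 ± 0.50 in mice (adjusted p = 0.00414), and miR-221-3p by 3.75 ± 0.92 in granuloma (adjusted p = 0.0135). miR-18a-5p rose by 3.28 ± 0.52 in *Spalax* fibrosarcoma and 2.93 ± 0.51 in mice (adjusted p = 0.003 and 0.00422), and miR-19a-3p by 4.28 ± 0.75 in *Spalax* fibrosarcoma (adjusted p = 0.00456). At the IS 4 of the 11 were lower in granuloma than in *Spalax* fibrosarcoma, led by miR-17-5p (-1.91 ± 0.44, adjusted p = 0.0216) and miR-92a-3p (-1.50 ± 0.39, adjusted p = 0.0358), where 3.36% of 447 microRNAs were called lower. This number was 9 with DESeq2, 6 on library totals, 2 without a trend, 1 with no filter and 0 in a fit of the compared libraries alone.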

How the data were processed

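Libraries were made with the TruSeq Small RNA kit from total RNA. The authors trimmed adaptors, mapped the reads with mirDeep and tested with DESeq2, and the build and settings of this mapping are not given in the sources used here. The submitters' processing notes list GRCm38, TopHat 1.4.1, HTSeq and DESeq without their role. The authors deposited a signal per microRNA and library, which is reads divided by a factor per library, as worked out from the values: 100% were whole multiples of a step, within 0.01. Size factors recomputed from the mouse libraries alone equalled the factors of the authors. Those from the *Spalax* libraries alone did not, for example 0.991 against the authors' 0.801 for the IS of Sp600. The set of libraries behind the *Spalax* factors was not established here. Another 5 columns of the tables were not used. The reads of any 2 libraries of a group differed by more than sampling noise (chi-square per degree of freedom at least 327.1). Reads carry no molecular identifiers, so that the floor of 3 reads per library covers counting error only.

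limma 3.58.1, with a trend in the spread, was run in R 4.3.3 on log2(value + 1). A microRNA was tested where its value reached 10 in 2 or more libraries of *Spalax*, or 3 or more of mice. The 8 *Spalax* libraries shared a fit with a mean per group, and the 6 mouse libraries were fitted separately. Tests were two-sided, with Benjamini-Hochberg adjustment over all microRNAs tested and a threshold of 0.05. Alternatives included edgeR 4.0.16 and DESeq2 1.42.0 on the recovered reads. The same animal number marks both sides of 1 animal, so that the numbers pair the libraries, and the block was an alternative. The correlation of deviations from the group means was 0.0933 in granuloma, 0.00405 in *Spalax* fibrosarcoma, and 0.122 and -0.107 in mice M512 and M1023. The fits were also run on simulated reads, which had a single spread for all microRNAs and no pairing of animals. That simulation is therefore no check of the spread or the pairing in these data. p-values measure the spread between the animals of a group.

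The members and the lists of cell-cycle and cell-type microRNAs were chosen with earlier results of these data known. The text names the 5 members, the other strands of their hairpins, miR-322-5p and miR-503-5p. It also names the 2 most alike microRNAs of each member by Pearson's r over the *Spalax* libraries. From each cell-cycle list it names the 2 smallest p-values per comparison. The seed was to be read from mature sequences, and a table of these was not used here. GENCODE M21 hairpins (GRCm38) took its place and were searched for AGCAGCA, which stood in 84 of 2202. Of these, miR-322-5p was set as the relative described. The search did not single it out, and other hairpins with the letters are not described as relatives here. Blood cell, smooth muscle and muscle fiber microRNAs set beside results were picked after their values were seen.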

Additional observations from a re-analysis of the deposited data

Results flagged for a closer look

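miR-16-5p differed between the sides in opposite directions in the 2 species, judged by each library of a side against the log2 mean of the other side. Its log2 fold change (IS over UIS) was 0.29 in granuloma and 1.12 in *Spalax* fibrosarcoma, with every IS library above the mean of the UIS and every UIS library below the mean of the IS. In mouse fibrosarcoma it was -0.42, with every library the other way by this criterion. The mouse sides still overlapped, since the unnumbered UIS library (106133) lay below the IS of M1023 (115045) and M1019 (134816). The difference between the species was not tested, since their tables were normalized separately, and of the 3 values limma called the *Spalax* fibrosarcoma value alone.

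miR-195a-3p met the same criterion, with 1.70 in *Spalax* fibrosarcoma and -1.37 in mouse fibrosarcoma. Neither value passed the threshold and the difference was not tested. On library totals the mouse values turned to 1.96 for miR-16-5p and 0.92 for miR-195a-3p.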

How the results depend on the processing

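The 5 members in 6 comparisons gave 30 results with 510 alternative values, of which 454 kept their direction and their side of the threshold, 7 lost the call, 12 gained it and 37 turned direction. Scaled to library totals, 3 members passed in granuloma, 5 in *Spalax* fibrosarcoma and 4 in mice, with granuloma miR-15a-5p at 1.83, mouse miR-15a-5p at 2.17, miR-16-5p at 1.96, miR-195a-5p at 1.33, miR-497a-5p at 1.97 and miR-195a-3p at 0.92, where the muscle microRNAs of the UIS count in the totals. In *Spalax* fibrosarcoma 1 member passed with edgeR and TMM, with limma without a trend, with the replicate block and with a fit of the compared libraries alone, and the cause was not tested. DESeq2 called 3 members in *Spalax* fibrosarcoma, miR-15a-5p among them, 1 in mice and 1 between the IS of granuloma and of *Spalax* fibrosarcoma. With the median of all microRNAs subtracted, an alternative chosen after seeing the data, mouse miR-15b-5p was 1.05 on normalized counts and 1.38 on totals, miR-16-5p -0.64 and -0.28, and miR-195a-5p -1.26 and -0.91. Since the subtraction removes a shift common to all microRNAs, these values are no check of the scaling, under which miR-16-5p and miR-195a-5p turned sign.

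The replicate block changed the call of miR-16-5p in *Spalax* fibrosarcoma, of miR-15b-3p, miR-16-1-3p and miR-503-5p in mice, and no other call of the family, its other strands or its relatives between sides. Mouse miR-16-2-3p was -0.02 with it.

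Values near 0 turned direction elsewhere. Granuloma miR-15a-5p was 0.00 with TMM or with size factors set without muscle microRNAs and 0.03 with edgeR on size factors or DESeq2. The difference of changes of miR-15b-5p was 0.07 with TMM. Between the UIS groups miR-16-5p was -0.06 with TMM, -0.14 on totals and -0.01 with edgeR on size factors, DESeq2 or size factors without muscle microRNAs, and miR-195a-5p was -0.00 with TMM.

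With single libraries left out, 1 member passed in granuloma each time, 0 to 3 in *Spalax* fibrosarcoma, 0 to 1 in mice, 0 to 2 between the IS groups, and 0 in the difference of changes and between the UIS groups. Over the same fits, granuloma values ranged from -0.07 to 0.04 for miR-15a-5p, -0.68 to 0.71 for miR-195a-5p, -0.86 to 0.90 for miR-497a-5p and -0.14 to 1.60 for miR-195a-3p. In *Spalax* fibrosarcoma miR-195a-5p ranged from -0.59 to 1.75 and miR-497a-5p from -0.06 to 2.08, and in mice miR-15a-5p from -0.55 to 0.12. The difference of changes ranged from -0.59 to 0.27 for miR-15b-5p, -1.74 to 0.61 for miR-195a-5p and -2.06 to 0.08 for miR-497a-5p. Between the IS groups miR-195a-5p ranged from -1.54 to 0.80 and miR-497a-5p from -2.12 to 0.02, and between the UIS groups miR-16-5p from -0.03 to 0.13, miR-195a-5p from -0.17 to 0.55 and miR-497a-5p from -0.41 to 0.29. A lone library left in a group was assumed to vary like the others.

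Over all microRNAs, the 17 calls in the difference of changes became 5 with the replicate block, 60 with DESeq2, 43 on totals, 0 with a pseudocount of 0.1 or with no filter, and 0 to 39 with single libraries left out. The 84 calls between the IS groups became 4 in a fit of those libraries alone. The lowest number of calls with a library left out was 129 in granuloma and 77 in *Spalax* fibrosarcoma.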
